A study of Penicillium oxalicum with 18 samples.

Results

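The interaction between loss of the Hap complex and carbon source was measured in the filamentous fungus Penicillium oxalicum. It is the change of a transcript from glucose to bran and cellulose, averaged over the hap3 and hap5 deletion strains, minus the same change in the wild type strain 114-2. A positive interaction means that the change on bran and cellulose was more upward, or less downward, without Hap than with it. A negative interaction means the opposite. All 18 libraries of the study enter this comparison. They are 3 each of wild type, hap3 deletion and hap5 deletion on 2% glucose, and 3 each of these strains on 1% bran with 1% microcrystalline cellulose. All mycelium was first grown for 24 h at 30 °C on 2% glucose, then for 24 h in the test medium. The labels do not say whether a deletion strain is 1 clone, and they name no strain with the gene put back.

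The Hap complex binds the sequence CCAAT in fungal promoters and regulates transcription. Hap3 and Hap5 are histone-fold subunits that pair with each other, and in yeast and Aspergillus they bind DNA together with Hap2, so that loss of either subunit disables the complex. Filamentous fungi change much of their transcription when glucose is replaced by plant cell wall material: genes for secreted cellulases and hemicellulases are held down by glucose and induced by cellulose. The interaction addresses which parts of that switch depend on Hap.

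The deposited table lists FPKM (fragments scaled by gene length and by mapped fragments) for 9277 genes, of which 8681 reached at least 1 FPKM in at least 3 libraries and were tested. Library totals ran from 966280 to 1202683 FPKM, and sequencing depth is unknown. The labels describe tag libraries, for which division by gene length distorts levels between genes. Each difference is therefore taken within a gene. The filter, the constant added before taking logs and the estimate of spread still depend on FPKM levels. Where genes are ranked, binned, summed or summarised by FPKM below, this describes the deposited values and not transcript numbers. The table pairs its locus tags with no gene names, and 0 of them matched the reference gene table of strain HP7-1, so no functions are given and the deleted genes could not be checked by name. In a search made after the values were seen, 1 gene per deletion strain was at least 4 times lower in all 6 of its libraries than in each of the other 12. These were PDE_02832, at most 12.18 FPKM in the hap3 deletion and at least 134.38 elsewhere, and PDE_01016, at most 2.22 FPKM in the hap5 deletion and at least 118.83 elsewhere. Replicates may be technical, since nothing says that they were separate cultures, and p-values then measure only the spread between these libraries. Bulk RNA cannot tell fewer expressing cells from less RNA per cell.

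The carbon response differed between the mean of the deletions and wild type at 2534 of the 8681 tested genes, 29.2% of them. At 2038 of these, 80.43%, the interactions of the hap3 and hap5 deletions were each called in the same direction on their own. Both subtract the same wild type libraries, and the genes were chosen by their mean, so this share is partly fixed by that choice. The interaction was negative at 1550 genes (17.9%) and positive at 984 (11.3%). A gene was called at a Benjamini-Hochberg adjusted p under 0.05 in limma and a log2 difference of at least 1, on the scale of log2(FPKM + 1), which understates differences of low genes. Interactions of at least 3 log2 units were found at 328 negative and 217 positive genes, and of at least 8 at 19 and 5. The balance between directions depended on scaling: positive calls made up 38.83% in the deposited values, but 47.42% when libraries were scaled by the median of ratios and 49.6% when they were quantile normalized. Scaling by ratios shifted the median interaction over all tested genes by 0.159, from -0.128 to 0.031, so the excess of negative calls depends on the scaling.

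Carbon responses spread less widely across genes without Hap. The standard deviation of the log2 response over the 8681 genes was 1.774 in wild type, 1.543 without hap3, 1.386 without hap5 and 1.428 in the mean of both deletions, which averages out part of the noise. In wild type 37.2% of genes were called (23.2% higher and 13.9% lower), and in the mean of the deletions 28% (16.2% and 11.8%), although that mean rests on more libraries. Across genes these responses, which share no library, correlated at 0.556 (Pearson), with a slope of 0.448 for the deletions on wild type. For the 6965 genes that averaged 10 FPKM or more the correlation was 0.587. Genes share libraries and are not independent replicates, so these values describe the table and carry no test.

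**Figure D1:**
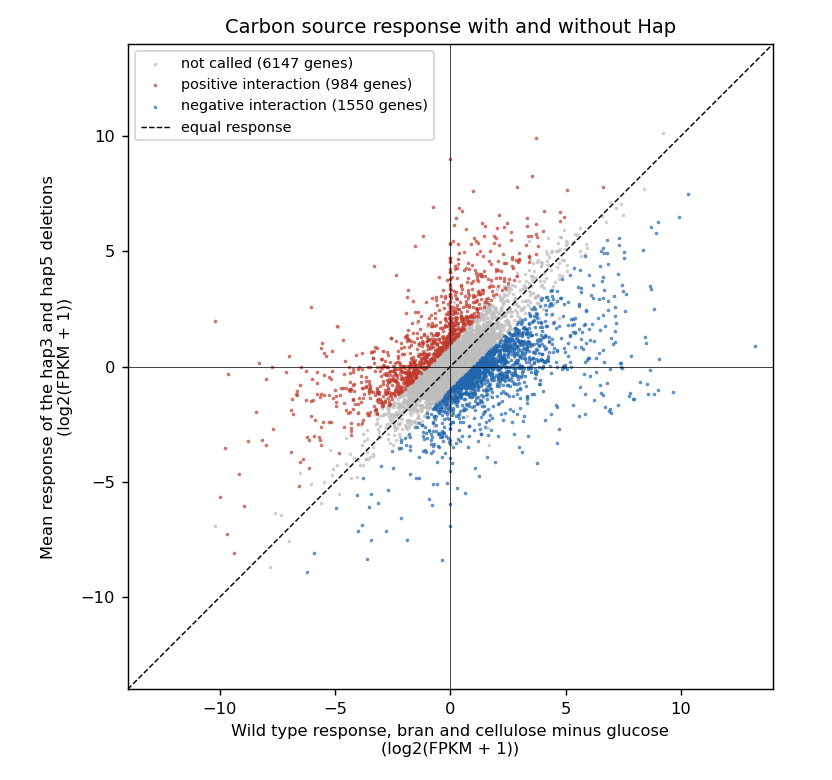
Each point is 1 of 8681 tested genes, with its log2 response to bran and cellulose in wild type on the x axis and the mean response of the hap3 and hap5 deletions on the y axis. The 1550 genes with a negative interaction (blue) lie below the dashed line of equal response and the 984 with a positive one (red) above it, with many of both close to the horizontal line of no response in the deletions.

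Interactions were called at genes of every FPKM range. Among the 373 genes that reached a mean of 1000 FPKM or more in some group, 20.6% had a positive and 19.3% a negative interaction. Among the 2507 with a highest group mean from 100 to under 1000 FPKM, these shares were 13% and 22.5%. Among the 4724 genes whose highest group mean lay from 10 to under 100 FPKM, the shares were 9.61% and 16.5%, and among the 1077 under 10 FPKM they were 11.7% and 12.6%. Positive interactions were thus most frequent in the highest range and negative ones in the range below it. No test was made of these differences, and FPKM ranks genes only within the limit given above. The added constant also reduces the log2 changes of the lowest genes. The ranges use the same group means as the interaction, so the shares follow in part from that definition. The balance of signs also depended on scaling, as given above.

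The called genes fell into patterns by their response in wild type and in the mean of the 2 deletions. The most frequent was a wild type rise on bran and cellulose that was not called in the mean of the deletions. Without a minimum change it was no longer the most frequent. Here it held 670 genes, 43.23% of the negative interactions. Their median response was 2.083 log2 units in wild type and 0.127 in the deletions. The mirror pattern, a wild type fall that was not called in the deletions, held 306 genes, 31.1% of the positive interactions, with medians of -2.088 and -0.208. A response called only in the deletions was as frequent among positive interactions: 304 genes (30.89%) rose on bran and cellulose only there, with a median of 2.002 against 0.052 in wild type. Among negative interactions 245 genes fell only in the deletions.

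Smaller groups had their response reduced, enlarged or turned round. A wild type rise was reduced at 247 genes, with medians of 3.973 in wild type and 1.712 in the deletions, and a wild type fall was reduced at 139. A rise was enlarged at 119 genes, from a median of 1.963 to 4.157, and a fall was enlarged at 48. In the mean of the deletions the direction was reversed at 110 genes that rose in wild type and at 45 that fell there. The carbon response differed between the hap5 and hap3 deletions at 30 and 11 of these, against 4.7% of all genes tested. A reversed mean therefore need not hold in each deletion. At the other 230 negative and 71 positive genes neither response was called. Quantile normalization changed the count of reduced rises from 247 to 164 and that of genes with neither response called to 142 negative and 157 positive.

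**Figure D2:**
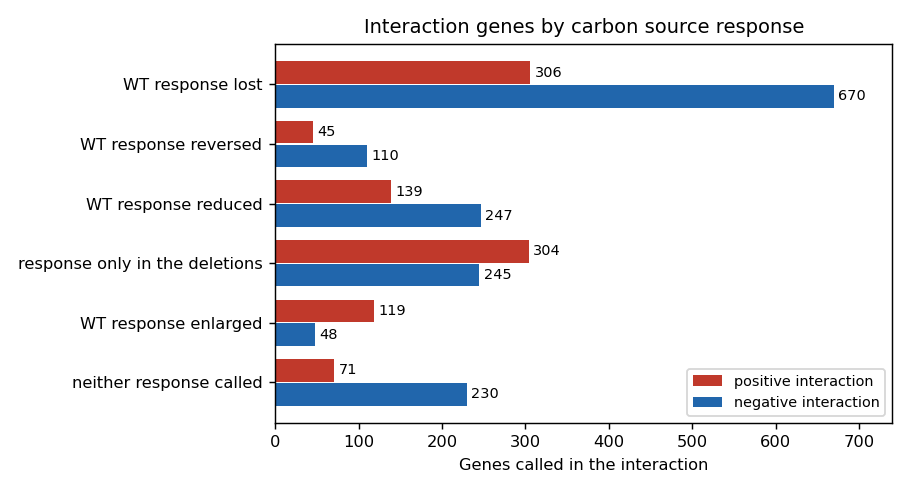
Bars give the number of genes called in the interaction, by pattern of carbon response and by sign. A lost response was called in wild type and not in the mean of the deletions, which was the most frequent pattern for both signs, with 670 negative and 306 positive genes.

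Of the 2017 genes (23.2%) that rose on bran and cellulose in wild type, 1027 (50.9%) had a negative interaction, 119 (5.9%) a positive one and 871 (43.2%) none. Of the 1209 (13.9%) that fell, 490 (40.5%) had a positive interaction, 48 (3.97%) a negative one and 671 (55.5%) none. The wild type libraries enter both the choice of these genes and the interaction, so the excess of opposite signs is partly fixed by that choice. The rise or fall of 522 and 321 genes was called in wild type and in the deletions with no interaction called, which does not show equal responses.

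Genes with a negative interaction held a larger part of the FPKM total in wild type on bran and cellulose than in any other group. It came to 31.8%, 33.2% and 33.8% in the 3 wild type libraries on that medium, and to between 8.83% and 9.31% on glucose. Because FPKM is distorted between genes, these are shares of the deposited values and not of transcripts. In the deletions their share was between 9.88% and 10.8% on bran and cellulose and between 11.3% and 13.7% on glucose. Wild type on bran and cellulose stood apart from every other library, and the deletions on that medium did not exceed their own glucose libraries. Genes with a positive interaction took 21% ± 0.252 (SD, n = 3) of the total in wild type on glucose and 7.88% ± 0.108 on bran and cellulose. Without hap3 they took 11.9% ± 0.2 and 15.8% ± 0.0577, and in the hap5 deletion 12.8% ± 0.306 and 16.1% ± 0.1. The genes were chosen by these same values, so the shares describe them and were not tested.

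**Figure D3:**
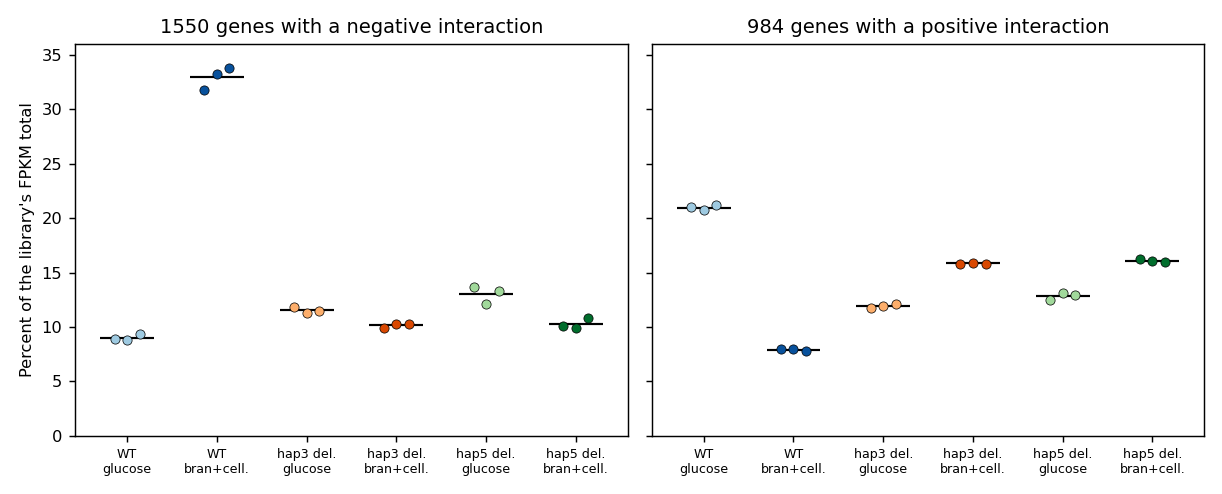
Points are libraries and bars group means of the percent of the FPKM total held by the 1550 genes with a negative interaction (left) and the 984 with a positive one (right). The 3 wild type libraries on bran and cellulose lie at 31.8% or more on the left, where no other library passes 13.7%, and at 7.96% or less on the right, where they are the lowest.

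Both of the genes with the highest FPKM among negative interactions lost nearly all of their wild type level on bran and cellulose. PDE_05118 was at 17058.98, 18207.85 and 21028.77 FPKM in the wild type libraries on bran and cellulose, and at 111.47, 118.86 and 175.63 FPKM on glucose. Without hap3 PDE_05118 was at 391.31, 356.33 and 348.25 FPKM on bran and cellulose and at 52.33, 44.02 and 55.93 FPKM on glucose. In the hap5 deletion the same gene was at 341.79, 355.54 and 386.47 FPKM on bran and cellulose, and at 64.31, 76.11 and 69.09 FPKM on glucose. It still rose on bran and cellulose in both deletions, with no overlap between media. Its response was 7.13 log2 units in wild type and 2.59 in the deletions, an interaction of -4.54 (SE 0.18, adjusted p = 1.04e-11 in limma).

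PDE_09377 differed from PDE_05118 in that it was abundant in wild type on both media. It stood at 3160.63, 3372.79 and 2857.37 FPKM on glucose and at 24014.68, 22525.25 and 22840.57 FPKM on bran and cellulose. Without Hap PDE_09377 lay between 296.48 and 504.42 FPKM on glucose and between 409.9 and 528.83 FPKM on bran and cellulose. All 12 deletion libraries were therefore below all 6 wild type libraries, and the deletion libraries of the 2 media overlapped. The interaction of PDE_09377 was -2.62 (SE 0.19, adjusted p = 1.33e-08 in limma).

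The corresponding genes with a positive interaction were high on glucose. PDE_00621 fell from 9249 ± 1276 to 1790.0 ± 161 FPKM in wild type, and the hap3 deletion went from 14730.5 ± 3360 to 7608 ± 148 FPKM. The hap5 deletion had 11619 ± 1568 FPKM on glucose and 9438 ± 897 FPKM on the other medium. PDE_00621 had an interaction of 1.75 (SE 0.19, adjusted p = 1.32e-06), but 0.534 with an adjusted p of 0.105 after quantile normalization, which ends the call. PDE_08540 was at 18643.68, 15860.84 and 13845.99 FPKM in wild type on glucose and at 7103.2, 7844.08 and 6918.14 FPKM on bran and cellulose. Without Hap PDE_08540 was between 71.3 and 358.83 FPKM in all 12 libraries, so it was far below wild type on both media. The interaction of PDE_08540, 1.35 (SE 0.41, adjusted p = 0.00978), was called in the hap3 deletion alone (1.88) and was 0.82 with an adjusted p of 0.153 in the hap5 deletion alone.

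Examples of each negative pattern were taken as the largest interaction among genes of at least 1 FPKM in every library. PDE_07585 was at 2.52, 2.39 and 2.25 FPKM in wild type on glucose and at 1106.9, 1302.44 and 1339.23 FPKM on bran and cellulose. Without hap3 it was at 61.79, 62.55 and 52.54 FPKM on glucose and at 19.06, 24.36 and 20.33 FPKM on bran and cellulose. Without hap5 it was at 31.75, 20.3 and 23.71 FPKM on glucose and at 24.56, 23.05 and 24.9 FPKM on bran and cellulose. Every deletion library thus lay above wild type on glucose and below it on bran and cellulose. By the mean of the deletions this was a lost rise, with an interaction of -9.26 (SE 0.17, adjusted p = 3.52e-15 in limma). The hap3 deletion alone fell on bran and cellulose with no overlap between media, while the media overlapped in the hap5 deletion.

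Reduced and reversed rises looked different. Wild type PDE_09417 rose from 7.163 ± 0.917 to 3722 ± 763 FPKM. Without hap3 it rose from 3.363 ± 0.371 to 22.81 ± 1.24 FPKM, and without hap5 from 4.367 ± 0.834 to 30.18 ± 1.65 FPKM. The effect of Hap loss was -0.755 log2 units on glucose, where the deletions and wild type did not overlap, and -7.073 on bran and cellulose. The interaction of PDE_09417 was -6.32 (SE 0.18, adjusted p = 2.91e-13 in limma). Among reversed rises of at least 1 FPKM in every library PDE_09239 had the largest interaction, at -9.34 (SE 0.98, adjusted p = 7.82e-07), but only the hap3 deletion was reversed. Wild type rose at PDE_09239 from 1.29 ± 0.0954 to 576.8 ± 166 FPKM. The hap3 deletion was at 525.85, 1314.52 and 296.55 FPKM on glucose and at 6.08, 100.51 and 65.07 FPKM on bran and cellulose, while the hap5 deletion was at 6.68, 28.81 and 10.77 FPKM and at 46.26, 20.94 and 32.92 FPKM.

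Falls that appeared or grew without Hap also gave negative interactions. PDE_00595 was at 33.78 ± 15.5 FPKM in wild type on glucose, against 50.75 ± 4.95 FPKM on bran and cellulose. It went from 74.99 ± 1.12 to 1.783 ± 0.266 FPKM in the hap3 deletion and from 180.3 ± 29.7 to 1.537 ± 0.234 FPKM in the hap5 deletion. The deletions were above wild type on glucose and below it on bran and cellulose, an interaction of -6.12 (SE 0.26, adjusted p = 2.62e-11). PDE_01234 fell from 329.1 ± 20.8 to 127.6 ± 17.6 FPKM in wild type, and from 172.2 ± 47.9 to 5.243 ± 0.824 FPKM without hap3. Without hap5 it fell from 240.0 ± 18 to 7.277 ± 1.86 FPKM. PDE_01234 thus had an interaction of -3.45 (SE 0.24, adjusted p = 6.28e-09).

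Positive interactions included genes that were induced strongly only without Hap. PDE_01958 was at 22.73, 18.54 and 26.75 FPKM in wild type on glucose and at 53.69, 37.34 and 45 FPKM on bran and cellulose. Without hap3 it went from 5, 6.42 and 4.48 FPKM to 1202.52, 1303.7 and 1183.76 FPKM, and in the hap5 deletion from 4.29, 4.28 and 4.59 FPKM to 1057.23, 1030.83 and 1007.6 FPKM. The deletion libraries lay below all wild type libraries on glucose and above all of them on bran and cellulose. The interaction of PDE_01958 was 6.63 (SE 0.17, adjusted p = 1.43e-13), while its wild type response of 0.97 stood just under the minimum change of 1. PDE_06621 rose in all strains, from 3.887 ± 0.323 to 35.49 ± 4.12 FPKM in wild type, from 1.647 ± 0.201 to 764.4 ± 93.2 FPKM in the hap3 deletion and from 2.073 ± 0.198 to 543.5 ± 92 FPKM in the hap5 deletion. Its enlarged rise had an interaction of 4.92 (SE 0.16, adjusted p = 9.98e-13).

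Other positive interactions came from glucose transcripts that did not fall as in wild type. PDE_08660 was at 225.68, 235.57 and 255.55 FPKM in wild type on glucose and at 5.26, 2.85 and 1.03 FPKM on bran and cellulose. It rose in the hap3 deletion from 34.59 ± 7.1 to 271.5 ± 41.3 FPKM and in the hap5 deletion from 68.38 ± 6.97 to 319.7 ± 56.1 FPKM. Media did not overlap in any strain, and the direction in both deletions was opposite to wild type, an interaction of 8.61 (SE 0.35, adjusted p = 1.72e-11). Wild type PDE_04519 fell from 4072 ± 388 FPKM on glucose to 38.63 ± 2.05 FPKM on bran and cellulose. The deletion libraries overlapped it on glucose, at 3399 ± 897 and 3649 ± 1087 FPKM, and stood at 1180.4 ± 109 and 1939 ± 79.3 FPKM on bran and cellulose, an interaction of 5.50 (SE 0.24, adjusted p = 4.06e-11).

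PDE_01630 showed that a positive interaction can also come from a glucose transcript that was low without Hap. In wild type it was at 551.16, 495.25 and 1719.46 FPKM on glucose and at 1.61, 1.47 and 1.29 FPKM on bran and cellulose. The 12 deletion libraries all lay between 2.94 and 5.42 FPKM. The interaction came to 8.49 (SE 0.40, adjusted p = 7.82e-11) and the response of the deletions 0.18 (SE 0.23, adjusted p = 0.494). The largest interactions of all among genes of at least 10 FPKM in some group were those of PDE_09315, at -12.33 (SE 0.54, adjusted p = 3.75e-11), and PDE_06955, at 12.15 (SE 0.24, adjusted p = 9.83e-15). PDE_09315 was listed at 0 in every library on glucose, so its value depends on the added constant: it stood between 9100.35 and 10778.48 FPKM in wild type on bran and cellulose, while its highest deletion library had 3.82 FPKM. PDE_06955 was between 1120.72 and 2221.84 FPKM in wild type on glucose and at 0.22, 0.31 and 0.23 FPKM on bran and cellulose. Without Hap PDE_06955 was between 45.44 and 72.45 FPKM on glucose and between 216.24 and 269.48 FPKM on bran and cellulose.

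**Figure D4:**
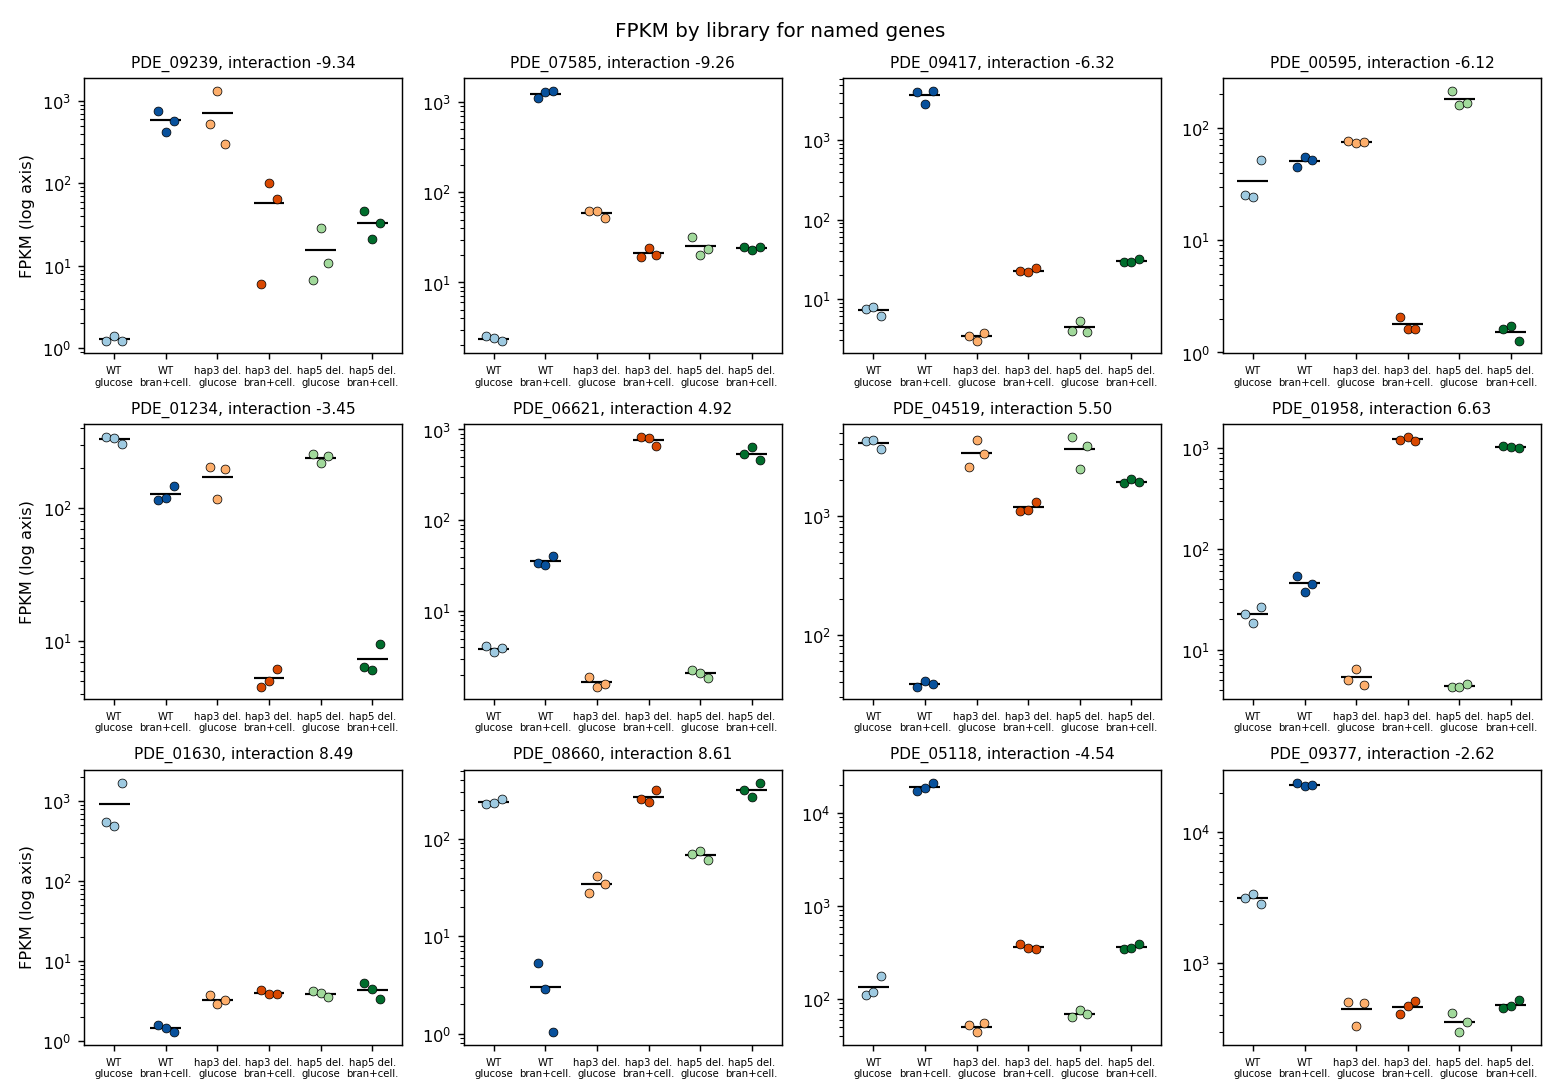
FPKM of 12 named genes in each library on log axes, by strain and medium, with bars at group means and the interaction above each panel. PDE_07585 and PDE_05118 rise to more than 1000 FPKM only in wild type on bran and cellulose, whereas PDE_01958 does so only in the deletions.

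The same interaction can be read as an effect of Hap loss that differs between media. Among the 1550 negative genes, 563 were lower without Hap on bran and cellulose with no call on glucose, and 402 were higher without Hap on glucose with no call on bran and cellulose. A further 153 were both higher on glucose and lower on bran and cellulose, 98 were lower on both media and 74 higher on both. Among the 984 positive genes, 424 were higher without Hap on bran and cellulose only, 216 lower on glucose only and 71 both. Another 134 were higher on both media and 32 lower on both. Neither effect was called at 260 negative and 107 positive genes. Over all tested genes, Hap loss gave higher calls at 16.4% and lower calls at 7.73% of genes on glucose, and 16.6% and 13.3% on bran and cellulose. The share of higher among glucose calls was 68.03%, and 53.64% after quantile normalization.

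A small set of genes was switched between near absence and clear presence. With presence set, after the data were seen, at 10 FPKM or more in every library of a group and absence at under 1 FPKM in every library, 44 genes were present in wild type and absent in both deletions on bran and cellulose. All 44 had a negative interaction. The reverse, present in both deletions and absent in wild type on bran and cellulose, held 55 genes, 49 with a positive interaction. On glucose 12 genes were present in wild type and absent in the deletions, 9 of them with a positive interaction, and 27 were present in the deletions and absent in wild type, 16 of them with a negative one. These thresholds act on the same values as the interaction, so the signs follow in part from the definition.

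Some called genes stood next to each other in the numbering of locus tags. Runs of at least 5 consecutive tags, all called in the same direction, numbered 6 for negative interactions, with 56 genes, and 4 for positive ones, with 20 genes. Whether tag numbers follow position on the chromosome was not looked up, as no coordinates of this annotation were used. The longest, PDE_09227 to PDE_09244, held 18 genes with interactions from -3.10 to -10.76 and a median of -8.32. Its genes had a median of 225, 137 and 152 FPKM in the wild type libraries on bran and cellulose and of 0.605, 0.545 and 1.14 FPKM on glucose. Without hap3 the medians were 149, 239 and 88.9 FPKM on glucose, against 6.29, 29.2 and 22.8 FPKM on bran and cellulose. Without hap5 they were 4.88, 11.5 and 8.29 FPKM on glucose, against 18.1, 11.7 and 17.4 FPKM on bran and cellulose.

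By its medians this run was therefore high in the hap3 deletion on the medium where wild type was low. Members differed: on glucose without hap3, PDE_09227 and PDE_09228 were only at means of 19.11 and 16.27 FPKM. On bran and cellulose PDE_09244 was at 248.5 FPKM without hap3 and 231 without hap5, above the 132 of wild type. The carbon response differed between the hap5 and hap3 deletions at 16 of the 18 genes of the run, against 4.7% of all genes tested. The spread on glucose in the hap3 deletion was wide, with replicate 2 highest at 16 of the 18 genes. That library also had the highest FPKM total of the study, and its part in the result was not tested beyond leaving it out: all 18 genes were then still called, with a median interaction of -8.08. The largest interaction in the run was that of PDE_09235, -10.76 (SE 0.81, adjusted p = 1.91e-08).

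The runs PDE_04019 to PDE_04029 and PDE_03921 to PDE_03930 had high medians in wild type on bran and cellulose and low ones in both deletions. Not every member was so. On bran and cellulose PDE_03929 was at a mean of 18.42 FPKM in wild type, 16.03 without hap3 and 17.13 without hap5. On glucose PDE_04020 was at 153.6 FPKM without hap3 and 167 without hap5. The first run held 11 genes whose median was 117, 219 and 256 FPKM in wild type on bran and cellulose and at most 10.2 FPKM in any other library. All 11 were higher in every wild type library on bran and cellulose than in every deletion library on that medium. At all 10 genes of the second run the same held, with group medians of 90.4 FPKM in wild type, 1.093 FPKM without hap3 and 1.538 FPKM without hap5. Their carbon responses differed between the deletions at 2 of 11 and 3 of 10 genes. Where tags that were absent or untested were passed over, a choice made after the data were seen, the first of these runs grew to PDE_04005 to PDE_04029, with 20 genes, and there were 15 runs in place of 10.

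Other negative runs were shorter. PDE_00482 to PDE_00487, with 6 genes, had a median response of 3.65 in wild type, but their responses in the deletions went both ways. PDE_00485 had -2.33 and PDE_00486 -1.04 there, PDE_00487 had 1.12, and the other 3 lay between -0.08 and 0.22. PDE_07203 to PDE_07208, also of 6 genes, had wild type responses from 1.13 to 2.37. In the deletions PDE_07203 and PDE_07204 had -0.22 and -0.91 and the other 4 had -1.99 to -2.42, and the effect of Hap loss on glucose had a median of 2.34. PDE_03435 to PDE_03439, of 5 genes, had mixed wild type responses, from 1.31 at PDE_03435 to -1.86 at PDE_03438, where the mean went from 348.1 to 94.85 FPKM. In the deletions all 5 responses were below 0, from -0.61 to -8.40.

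The positive runs all held 5 genes. PDE_01073 to PDE_01077 had the largest median interaction of the 4, at 4.21. Its member PDE_01076 was listed at 0 in wild type on glucose and at 0.11, 0.3 and 0.18 FPKM on bran and cellulose. On that medium the libraries without hap3 held 114.27, 116.99 and 92.56 FPKM and those without hap5 105.42, 99.82 and 62.93 FPKM. At all 5 genes every deletion library on bran and cellulose exceeded every wild type library, which was also so for PDE_01429 to PDE_01433. PDE_01235 to PDE_01239 and PDE_01478 to PDE_01482 were instead highest in wild type on glucose. Their median FPKM there was 86.11 and 278.1, against 3.86 and 13.25 without hap3 and 3.143 and 43.67 without hap5. At all 10 genes no deletion library on glucose reached a wild type one. Not every member was low on glucose without Hap. PDE_01479 was at a mean of 405 FPKM without hap3 and 1287 without hap5, and PDE_01480 at 142.3 and 353.8.

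**Figure D5:**
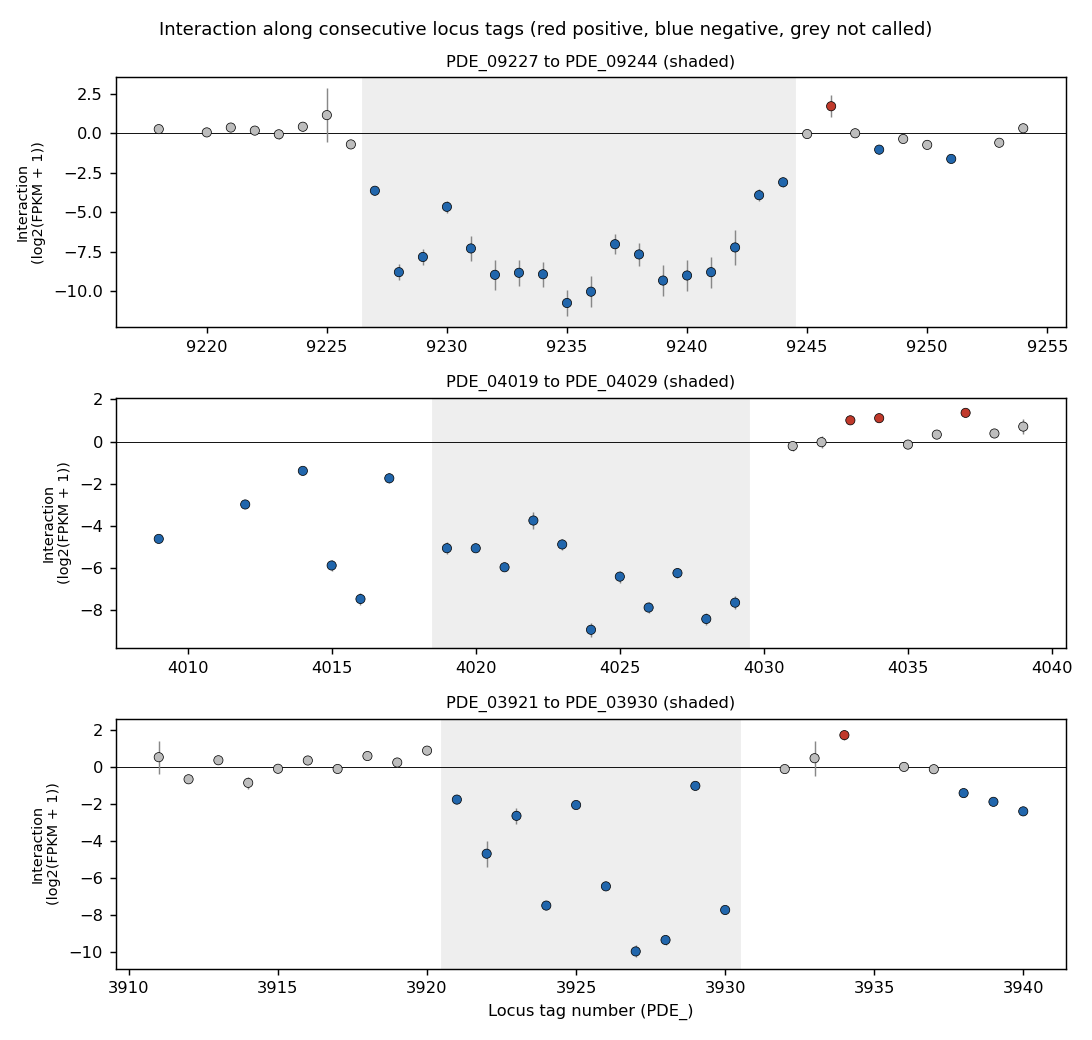
Interaction (log2 units, bars are standard errors) of tested genes along locus tag numbers around the 3 longest runs, which are shaded. Values drop to below -3 at the edges of PDE_09227 to PDE_09244 and lie nearer to 0 outside it, while negative values continue at tags before PDE_04019.

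Agreement of the deletions was examined with a contrast that uses no wild type library, the carbon response of the hap5 minus that of the hap3 deletion. It was called at 408 genes (4.7% of those tested), 130 higher (1.5%) and 278 lower (3.2%). Of the 2534 genes with an interaction 244 were among them, 9.63%, against 164 of the other 6147, 2.67%. At these genes the mean over the deletions hides a difference in size or direction. Of the named genes the contrast was called at PDE_09239 (5.26, SE 1.13, adjusted p = 0.007), PDE_09235 (4.21), PDE_07585 (1.39) and PDE_00595 (-1.38). At the other 14 named genes it was not called, with an adjusted p from 0.0159 to 0.998 and differences of at most 1.06 log2 units. The share of higher calls in this contrast was 31.86% in the deposited values, 46.52% with scaling by ratios and 48.43% with quantile normalization.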

How the data were processed

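Expression values are FPKM computed by the authors, in a single table of 18 columns, per the file headers. Per the labels' protocols, cDNA was digested with NlaIII and then MmeI to make short tags. Software, genome build and strand handling were not given in the sources read here, so overlapping or near-identical genes may share reads. Each column was assigned to a sample through the strain, medium and replicate in its name, with bran and cellulose, abbreviated otherwise in the titles, assigned by elimination. No column was left unmapped and 0 pairs of libraries were identical.

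Values were transformed to log2(FPKM + 1) and filtered at 1 FPKM in at least 3 libraries. Means of the 6 groups over all 18 libraries were compared in limma 3.58.1 (trended eBayes) under R 4.3.3, with Benjamini-Hochberg adjustment within each comparison. On simulated data for the interaction, with 8558 genes tested, 94% of 100 genes changed by 1.5 log2 units and 99% of 100 changed by 3 were recovered, with 3 false calls. These genes lay between 3 and 12 log2 units before the change.

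Genes were named by rule. Per pattern the largest interaction was taken among genes with at least 1 FPKM in all libraries, a group mean of at least 10 FPKM, and both single deletions called. The 2 most abundant called genes and the largest interaction of each sign, and the longest run of each sign, were added. Equal runs were separated by their median. The members, lists and rules were chosen with earlier results of these data known. No gene list by function was formed. Replicate numbers were shared between groups but were not used to pair the libraries in the main comparisons. Whether cultures with the same number were run together is unknown.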

Additional observations from a re-analysis of the deposited data

Results flagged for a closer look

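The carbon response differed between wild type and the deletions, by the test of the interaction itself, at 984 positive and 1550 negative genes, and between the hap5 and hap3 deletions at 130 higher and 278 lower genes. Named genes with a positive interaction were PDE_06955 (12.15), PDE_08660 (8.61), PDE_01630 (8.49), PDE_01958 (6.63), PDE_01076 (6.21), PDE_04519 (5.50), PDE_06621 (4.92), PDE_00621 (1.75) and PDE_08540 (1.35). Those with a negative interaction were PDE_09315 (-12.33), PDE_09235 (-10.76), PDE_09239 (-9.34), PDE_07585 (-9.26), PDE_09417 (-6.32), PDE_00595 (-6.12), PDE_05118 (-4.54), PDE_01234 (-3.45) and PDE_09377 (-2.62). The response of the hap5 deletion differed from that of the hap3 deletion at PDE_09239 (5.26), PDE_09235 (4.21), PDE_07585 (1.39) and PDE_00595 (-1.38). Groups of 3 libraries were not examined for outlying libraries.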

How the results depend on the processing

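Without a minimum fold, the counts of calls in each comparison rose past 1.5 times the reported ones. Lost responses of either sign stayed within 1.5 times, and genes with neither response called fell to 21 negative and 19 positive. Reduced responses rose to 996 negative and 757 positive genes, and reversed ones to 632 and 237. Reduced responses, and no longer lost ones, were then the most frequent pattern of both signs. The interaction then had 2091 positive and 3085 negative genes, the hap3 interaction 2062 and 2701, and the hap5 interaction 1823 and 3092. The wild type response had 3635 higher and 2513 lower genes, the response of the deletions 3200 and 3351, Hap loss on glucose 3700 and 1804, Hap loss on bran and cellulose 3213 and 2754, and the hap5 minus hap3 response 459 and 849. Wild type responses lost or reversed came to 1786 and runs of tags to 52. Runs fell from 10 to 5 without the 906 genes at 0 in some but not all libraries of a group, a choice made after the data were seen, since fewer genes were then tested. Leaving out each library in turn gave 963 to 1008 positive and 1480 to 1612 negative genes, and every named gene stayed called. Named genes lost their call in 2 cases, both given above: PDE_00621 after quantile normalization and PDE_08540 in the hap5 deletion alone. The cause was not tested. No named interaction changed sign under the alternatives run. With the replicate number as a block, the interaction was positive at 989 and negative at 1548 genes. Deviations of libraries with the same number correlated from -0.122 to 0.202 over 45 pairs, none of the 15 pairs of groups had all 3 over 0.1, and 9 of 18 libraries correlated best with their own number. Depth is unknown, so no counting error is given, and a value of 0 may be a failed estimate.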
